A study of Rattus norvegicus with 10 samples.

Results

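The postsynaptic density scaffold genes are the 10 genes of the Dlg, Shank and Homer families: Dlg1, Dlg2, Dlg3, Dlg4, Shank1, Shank2, Shank3, Homer1, Homer2 and Homer3. They were chosen by gene symbol and not by their measured values, though earlier results of these data were known. Of the 32041 RNA records counted in the hippocampus of these rats, 13 carry these names. Shank2 has 4 records and each other gene has 1. The record with the highest mean count stands for each gene, and all 13 passed the filter on low counts that left 22431 rows.

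Adult male Sprague-Dawley rats weighing 330 to 371 g were anesthetized and given a craniectomy 5 mm wide over the left parietal lobe. In 5 rats a fluid pulse of 3.32 ± 0.01 atm was delivered to the intact dura (lateral fluid percussion, a model of traumatic brain injury, TBI), and 5 sham rats had the same anesthesia and surgery with no pulse. The piece of left hippocampus holding CA3 and the dentate gyrus was taken 3 months later, and its poly-A RNA was sequenced in single-end runs of 36 cycles. Age is not stated in the labels, samples of each rat were processed individually according to the methods of the study, and the labels name the tissue dorsal hippocampus.

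The postsynaptic density is the protein mesh under the membrane of an excitatory synapse. Dlg proteins (the MAGUKs) bind the tails of glutamate receptors and channels through PDZ domains and sit closest to the membrane. Shank proteins form a deeper layer and are tied to the Dlg layer through the Dlgap proteins, and Homer proteins link Shank to group I metabotropic glutamate receptors and to the IP3 receptor. All 3 families are abundant in hippocampal pyramidal and granule cells, and Shank3 in particular is known as a gene of autism and intellectual disability.

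The libraries held 23425817 to 31671838 counts. Ribosomal RNA rows took 59.0% of the counts in sham replicate 4 and 58.5% in sham replicate 5, against 12.5% to 26.2% in the other 8 rats, and no TBI library was that rich. Of the 10 neuron markers, 8 were lower in TBI and 0 passed an unadjusted p of 0.05 (edgeR's quasi-likelihood test). Their summed level was 3305 to 3997 CPM (counts scaled to the normalized library size) in sham rats and 3002 to 3694 CPM in TBI rats. Sham replicate 1 was low in 3 of the 5 markers tested of excitatory and granule cells and high in another. Prox1 was 9.55 CPM there and 25.7 to 41.4 CPM in the other sham rats, C1ql2 was 33.4 CPM against 93.1 to 124 CPM, and Calb1 was 11.6 CPM against 24.4 to 37.6 CPM. Slc17a7, the vesicular glutamate transporter of excitatory neurons, was 2296 CPM there against 1584 to 1926 CPM, and Neurod2 lay within the range of the other sham rats. All 5 CA3 pyramidal cell markers tested were higher in sham replicate 1 than in any other sham rat (Grik4 152 CPM against 109 to 135 CPM). TBI replicate 5 was the lowest TBI rat for Prox1 (11.4 CPM) and C1ql2 (47.6 CPM). In bulk tissue, fewer cells of a type and less RNA per cell cannot be told apart.

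No scaffold gene passed the test for a difference between TBI and sham rats. In edgeR's quasi-likelihood test 0 of the 10 passed a Benjamini-Hochberg adjusted p of 0.05, in a comparison where 0.0% of all 22431 rows passed. At an unadjusted p of 0.05 the count was again 0 of 10 (0 of 13 records), while 7.89% of all rows passed. The sham and TBI values overlapped in all 13 records, and in all but 0.923% of the rows tested. The fitted change was higher in TBI for 4 genes and lower for 6, with a median of -0.04 on the log2 scale beside -0.01 over all rows. The smallest adjusted p was 0.733 (Dlg2, edgeR), where the smallest among all rows was 0.477. The study itself listed genes with altered expression for TBI at its own unadjusted cut-off, stricter than 0.05. Among them were Gad1, Gad2 and Gfap, and no scaffold gene. In the fit used here Gad1 and Gad2 were also under that cut-off and lower in TBI (unadjusted p = 0.000282 and 9.02e-05, edgeR). Gfap was not (unadjusted p = 0.0123, edgeR). Its methods give fewer control rats for this RNA comparison than the sham rats used here. Why Gfap passed that cut-off there and not here was not tested.

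The 95% intervals give a range for the change of each gene on its own in the main fit, and are not joint over the 10 genes. For all 10 genes the interval lay within 0.5 on the log2 scale either way, from 0.770-fold (the lower bound of Dlg2) to 1.39-fold (the upper bound of Homer3). The median standard error of the log2 change was 0.0977 for the scaffold genes and 0.127 over all rows. In this fit a change above 1.41-fold in either direction lay outside the interval of every gene. Intervals are not given for the alternative fits, where some changes lay further from 0. The intervals were narrower for most, such as 0.855-fold to 1.09-fold for Dlg3 and 0.838-fold to 1.08-fold for Shank2.

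**Figure D1:**
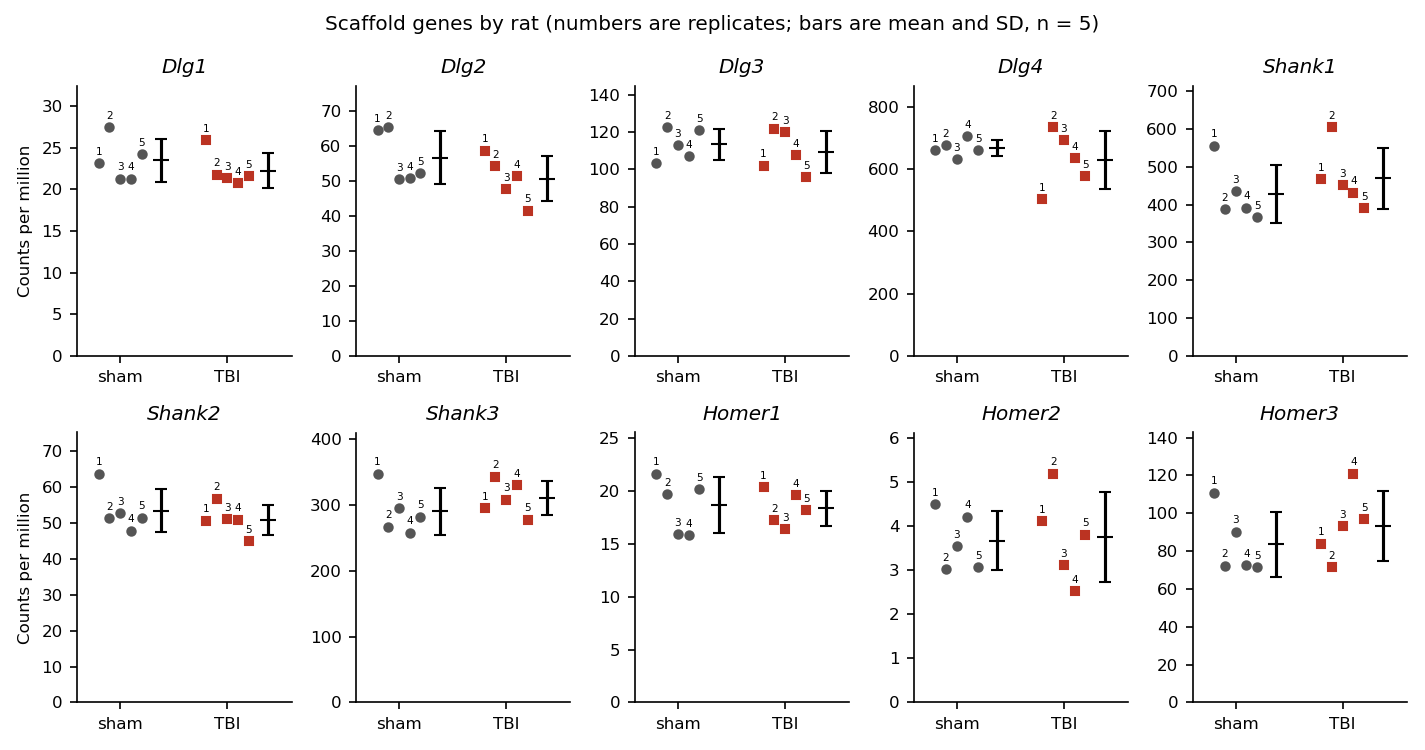
Level of each scaffold gene in every rat, in CPM on a linear axis from 0, with sham rats as circles, TBI rats as squares, replicate numbers above the points and the mean with SD (n = 5) at the side of each group. The 2 groups overlap in all 10 genes, sham replicate 1 is the highest sham rat for all 3 Shank genes and all 3 Homer genes, and TBI replicate 1 is the lowest rat for Dlg4.

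Dlg4 encodes PSD-95, the most studied scaffold of the density, which holds AMPA receptors at the synapse by way of their auxiliary subunits. It was 661, 677, 632, 705 and 661 CPM in sham replicates 1 to 5, and 504, 735, 694, 636 and 577 CPM in TBI replicates 1 to 5. The TBI rats spread on both sides of the sham rats, with TBI replicate 1 lowest and TBI replicate 2 highest of all 10. The mean was 667 CPM ± 26.7 (SD, n = 5) in sham and 629 CPM ± 91.9 (SD, n = 5) in TBI, so the coefficient of variation was 4.00% and 14.6%. Whether the 2 spreads differ was not tested. The log2 change was -0.09 (SE 0.095, 95% interval -0.28 to 0.11, adjusted p = 0.872 by edgeR).

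Dlg2 encodes PSD-93, which binds NMDA receptors and potassium channels. Sham rats held 64.6, 65.4, 50.5, 50.8 and 52.4 CPM and TBI rats 58.7, 54.2, 47.7, 51.4 and 41.6 CPM, in replicate order. The first and the second sham rat were the highest of the 10 and TBI replicate 5 the lowest, while the rest mixed between 47.7 and 58.7 CPM. Dlg2 had the lowest unadjusted p of the 10 genes (0.124) and the lowest fitted change, -0.16 (SE 0.102, 95% interval -0.38 to 0.05, adjusted p = 0.733 by edgeR). It passed an unadjusted p of 0.05 in 1 setting, without TBI replicate 1, where the change was -0.22 (unadjusted p = 0.0440, adjusted p = 0.648, edgeR).

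Dlg1 (SAP97) and Dlg3 (SAP102) traffic AMPA and NMDA receptors on their way to the membrane. Dlg1 was 23.1, 27.4, 21.3, 21.3 and 24.2 CPM in sham rats and 25.9, 21.7, 21.4, 20.7 and 21.6 CPM in TBI rats. Apart from TBI replicate 1, the injured rats lay from 20.7 to 21.7 CPM. TBI replicate 4 was below the lowest sham rat and the others were at the low end of the sham range. Dlg3 was 103, 123, 113, 107 and 121 CPM in sham rats and 102, 122, 120, 108 and 95.9 CPM in TBI rats. TBI replicates 1 and 5 lay below the lowest sham rat and the other injured rats inside the sham range. The log2 changes were -0.08 (95% interval -0.27 to 0.11) for Dlg1 and -0.05 (95% interval -0.23 to 0.12) for Dlg3. All 4 Dlg genes were fitted lower and 0 passed the test. The neuron markers had a median log2 change of -0.07. Set against the mean log2 level of the 10 neuron markers in the same rat, the TBI minus sham difference was -0.01 for Dlg1, -0.09 for Dlg2, 0.01 for Dlg3 and -0.03 for Dlg4, with no test.

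Shank1 and Shank3 encode large proteins with ankyrin, SH3, PDZ and SAM domains that bind Dlgap, Homer and the actin machinery. Shank1 was 556, 388, 436, 392 and 366 CPM in sham rats and 467, 604, 450, 431 and 391 CPM in TBI rats. Sham replicate 1 and TBI replicate 2 stood well above the others, and the remaining rats ran from 366 to 467 CPM with the TBI rats mostly in the upper part. Its log2 change was 0.13 (SE 0.124, 95% interval -0.13 to 0.39, adjusted p = 0.838 by edgeR). Leaving out 1 rat moved it both ways, to 0.24 without sham replicate 1 (unadjusted p = 0.0355, adjusted p = 0.553 by edgeR) and to 0.025 without TBI replicate 2 (unadjusted p = 0.829, adjusted p = 0.989 by edgeR).

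Shank3 was 348, 267, 296, 258 and 283 CPM in sham rats and 296, 343, 308, 330 and 278 CPM in TBI rats. The highest rat was a sham rat, and the next 3 were TBI rats. The log2 change was 0.10 (SE 0.090, 95% interval -0.09 to 0.29, adjusted p = 0.833 by edgeR). Set against the neuron markers in the same way, Shank3 was 0.17 higher in TBI, with 4 of 5 TBI rats above the highest sham rat. In plain CPM 0 TBI rats lay above it. The mean centred log2 level of those markers was 0.22 in sham replicate 1, and -0.17 and -0.18 in TBI replicates 1 and 2. By the same ratio Dlg2 had 3 of 5 TBI rats below the lowest sham rat. How often other genes give such counts was not tested. The TBI minus sham difference against the neuron markers was 0.20 for Shank1, 0.00 for Shank2, 0.05 for Homer1, 0.08 for Homer2 and 0.23 for Homer3. These ratios were not tested.

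Shank2, a scaffold of the same build, was 63.7, 51.3, 52.7, 47.8 and 51.5 CPM in sham rats and 50.6, 56.7, 50.9, 50.9 and 44.9 CPM in TBI rats. Sham replicate 1 was again the highest rat, with TBI replicate 2 next, and TBI replicate 5 was the lowest of the 10. The log2 change was -0.07 (SE 0.086, 95% interval -0.25 to 0.11, adjusted p = 0.879 by edgeR). The other 3 records of Shank2 changed by -0.06, -0.05 and 0.00 and did not pass the test either. Their counts were 95.7%, 39.6% and 29.7% of the main record in sham rats and 96.8%, 40.2% and 31.4% in TBI rats. The records overlap, and how reads shared between them were counted is not given in the sources used here, so these percentages do not measure isoform use.

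**Figure D2:**
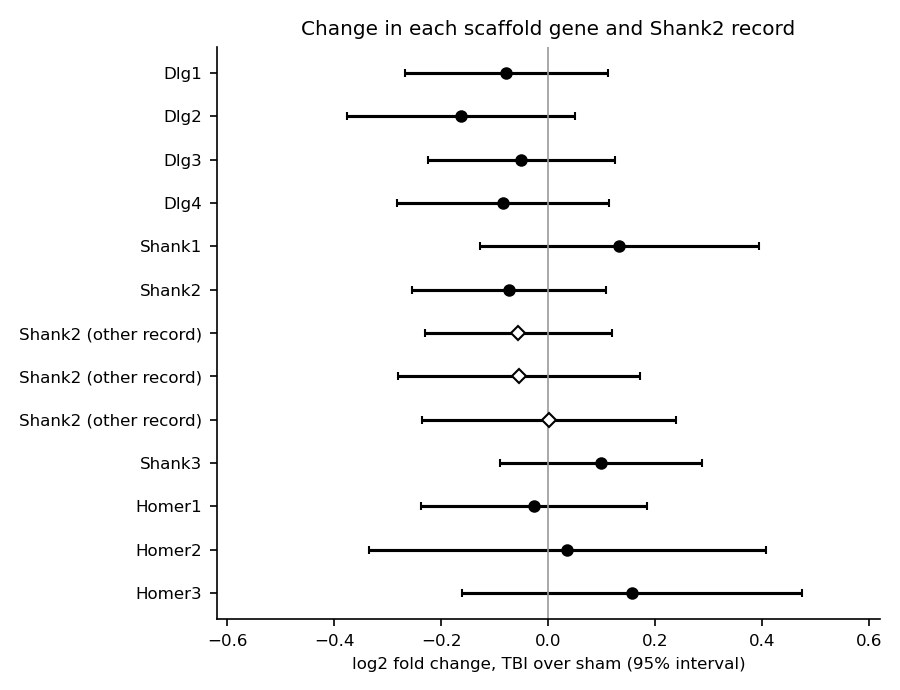
Log2 fold change of TBI over sham for the 10 scaffold genes (filled circles) and the other 3 records of Shank2 (open diamonds), each with a 95% interval derived from edgeR's F test. All 13 intervals cross 0, and Homer2 and Homer3 have the widest among the 10 genes.

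Homer1, Homer2 and Homer3 encode EVH1-domain adaptors that cross-link Shank to metabotropic receptors. Whether the row of Homer1 counts the short activity-induced form, Homer1a, the long forms that cross-link, or both could not be told. Homer1 was 21.6, 19.7, 15.9, 15.8 and 20.2 CPM in sham rats and 20.3, 17.2, 16.4, 19.6 and 18.2 CPM in TBI rats. Every TBI rat lay inside the sham range, and the log2 change was -0.03 (SE 0.101, 95% interval -0.24 to 0.18, adjusted p = 0.971 by edgeR).

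Homer2 was the scaffold gene with the fewest reads, 49 to 195 per rat. It was 4.49, 3.02, 3.54, 4.21 and 3.06 CPM in sham rats and 4.12, 5.19, 3.11, 2.53 and 3.81 CPM in TBI rats. The TBI rats included both the highest and the lowest value of the 10, and the log2 change was 0.04 with the largest standard error of the set (SE 0.176, 95% interval -0.34 to 0.41, adjusted p = 0.981 by edgeR).

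Homer3 was 111, 72.4, 90.3, 72.7 and 71.5 CPM in sham rats and 83.9, 71.6, 93.2, 121 and 96.8 CPM in TBI rats. Sham replicates 1 and 3 lay above the other sham rats, which ran from 71.5 to 72.7 CPM, and TBI replicate 4 was the highest rat. The log2 change was 0.16 (SE 0.148, 95% interval -0.16 to 0.47, adjusted p = 0.844 by edgeR), the highest of the 10 genes. Leaving out 1 rat moved it to 0.28 without sham replicate 1 (unadjusted p = 0.0414, adjusted p = 0.569 by edgeR) and to 0.045 without TBI replicate 4 (unadjusted p = 0.734, adjusted p = 0.971 by edgeR).

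Shares of counts within a family do not depend on how libraries are scaled, and 1 of the 10 shares separated the groups. Shank2 made up 6.58%, 7.26%, 6.71%, 6.85% and 7.35% of the Shank1, Shank2 and Shank3 counts in sham rats, and 6.22%, 5.65%, 6.29%, 6.27% and 6.30% in TBI rats. Every TBI rat lay below every sham rat, though the gap between the nearest pair, 6.30% and 6.58%, was small. The mean was 6.95% ± 0.34 (SD, n = 5) in sham and 6.14% ± 0.28 (SD, n = 5) in TBI, a difference of -0.81 percentage points (two-sided exact permutation p = 0.00794, the smallest that 5 rats against 5 allow). This share was singled out after the values of all 10 were seen, and its p is not adjusted for that. The other 9 shares overlapped between groups, with exact permutation p from 0.333 to 0.976.

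The separation kept its direction with each of the other Shank2 records but not always its test. The records overlap and are set against the same Shank1 and Shank3 counts, so these values are no separate evidence. With the second record the difference was -0.71 points and the groups overlapped (exact permutation p = 0.0238). With the third it was -0.31 points (exact permutation p = 0.00794), and with the fourth, the least read, -0.16 points (exact permutation p = 0.127). With the 4 records summed it was -1.59 points (exact permutation p = 0.00794). Leaving out each rat in turn gave -0.68 to -0.90 points, and leaving out the 2 sham rats rich in ribosomal RNA gave -0.71 points. Groups that do not overlap cannot be made to overlap by leaving rats out, so these values show the size of the difference only.

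Ratios between the Shank genes showed the same pattern. On the log2 scale Shank3 over Shank2 was 2.44 ± 0.039 (SD, 5 rats) in sham and 2.61 ± 0.055 (SD, 5 rats) in TBI, a difference of 0.17 (two-sided exact permutation p = 0.00794). The ratio of Shank1 to Shank2 was 0.20 higher in TBI (exact permutation p = 0.0238), and that of Shank1 to Shank3 was 0.03 higher (exact permutation p = 0.746). These ratios use the same counts as the shares and are no separate evidence.

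**Figure D3:**
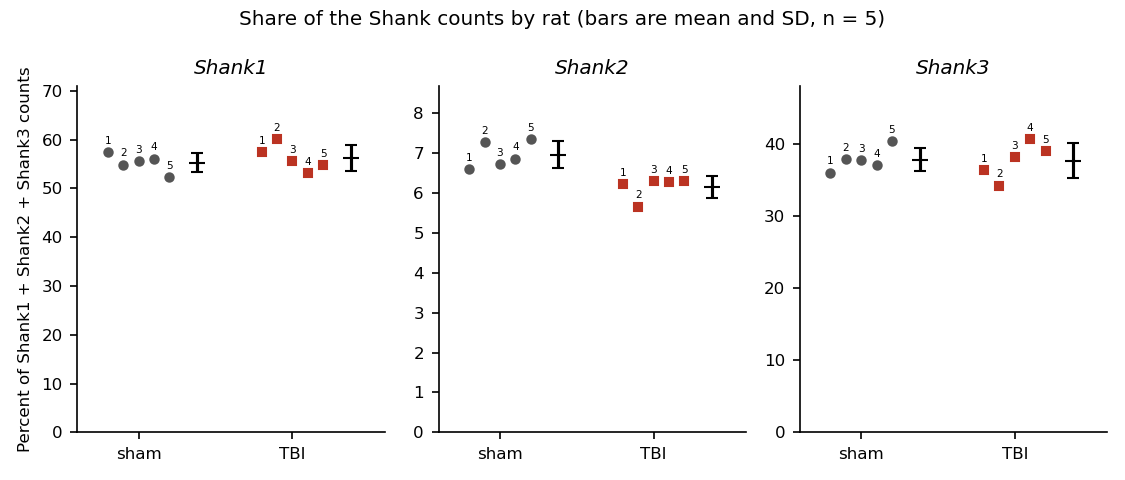
Percent of the summed Shank1, Shank2 and Shank3 counts taken by each gene in every rat, on linear axes from 0, with sham rats as circles, TBI rats as squares and the mean with SD (n = 5) beside each group. The Shank2 share lies between 6.58% and 7.35% in sham rats and between 5.65% and 6.30% in TBI rats, while the groups overlap for Shank1 and Shank3.

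In the Dlg family, Dlg4 took 77.5% ± 1.42 (SD) of the counts over 5 sham rats and 77.3% ± 2.46 (SD) over 5 TBI rats. TBI replicate 1 stood apart with 73.0% for Dlg4 and 8.51% for Dlg2. In the Homer family, Homer3 took 78.6% ± 2.96 (SD, n = 5) in sham and 80.5% ± 3.54 (SD, n = 5) in TBI rats. These are shares of counts, not of molecules, since longer transcripts yield more reads, and they serve to compare rats and not genes.

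Across the 10 rats the 3 Shank genes were correlated. Sham replicate 1 and TBI replicate 2 were the highest rats for each of them, and r without these rats was not computed. Pearson's r of log2 CPM was 0.85 for Shank1 with Shank3, 0.76 for Shank1 with Shank2 and 0.75 for Shank2 with Shank3, over 10 rats that share the same libraries. In the Dlg family r ran from -0.30 (Dlg1 with Dlg4) to 0.70 (Dlg1 with Dlg2), with 0.66 for Dlg3 with Dlg4. In the Homer family it ran from -0.28 (Homer2 with Homer3) to 0.26 (Homer1 with Homer3). The genes most like the mean of the scaffold genes over these 10 rats, among 8266 with a mean of at least 5 CPM, were Tbc1d24 (r = 0.97), Shc3 (0.94), Ak4 (0.93), Dlc1 (0.93) and Gpr75 (0.92). They are given as a description of these libraries and carry no test.

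Several of these values changed when the share of ribosomal RNA was taken into account. With that share as a covariate, the log2 change was 0.00 for Shank1, 0.03 for Shank3 and 0.02 for Homer3, -0.24 for Dlg2 and -0.14 for Shank2. Without the 2 rich sham libraries it was 0.03, 0.04, 0.04, -0.24 and -0.13. The higher fitted values of Shank1, Shank3 and Homer3 were near 0 in both fits. The lower values of Dlg2 and Shank2 lay further from 0. In either fit 0 of the 10 genes passed an unadjusted p of 0.05 (edgeR). Sham replicate 1, the highest sham rat for Shank1, Shank3 and Homer3, stayed in both fits. Without it, their log2 changes were 0.24, 0.17 and 0.28. Both rich libraries were sham, so ribosomal RNA share and group cannot be fully told apart.

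**Figure D4:**
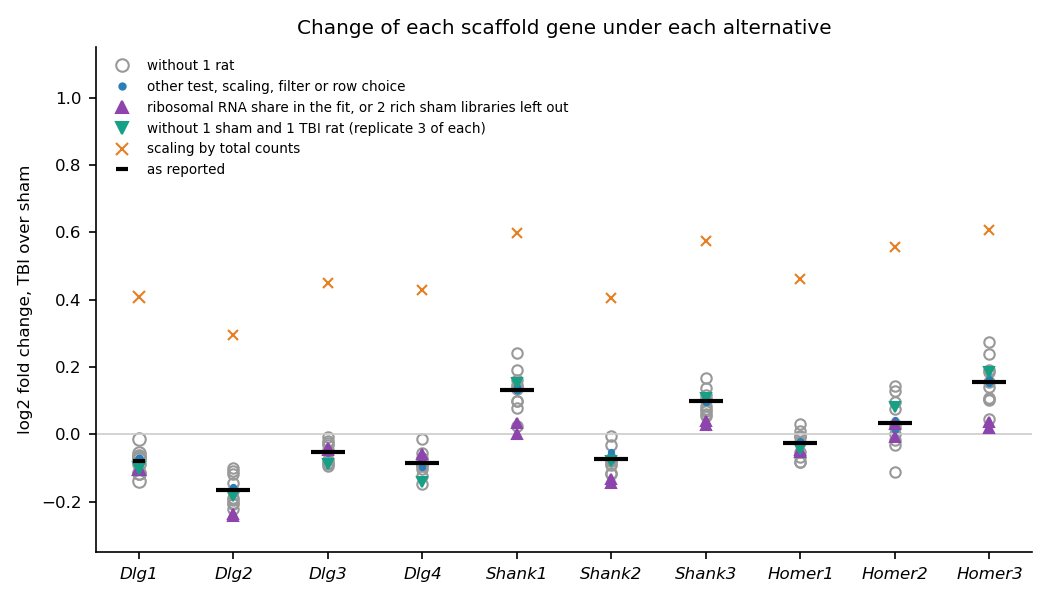
Log2 fold change of TBI over sham for each scaffold gene under every alternative, with the reported value as a black bar. Scaling by total counts, which takes ribosomal RNA as library size and puts the median of all rows at 0.50, moves all 10 genes up to between 0.30 and 0.61, and Shank1, Shank3 and Homer3 fall near 0 with the ribosomal RNA share as a covariate and without the 2 rich sham libraries.

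The partner lists hold genes of proteins that bind or regulate the scaffolds, and 12 activity genes. Their share past the unadjusted threshold was near that of all rows. Of 84 partner genes listed, 78 were tested, and 41 were fitted higher and 37 lower. An adjusted p of 0.05 was passed by 0 and an unadjusted p of 0.05 by 5 (6.41%), beside 7.89% of all rows (edgeR). Activity genes made up 11 of the 41 fitted higher and 2 of the 5. Among 27 other scaffolds and adaptors the median change was -0.03, and Grip1, an AMPA receptor adaptor, was the only one past the unadjusted threshold, at 12.2 CPM ± 1.22 in sham and 10.6 CPM ± 0.81 in TBI (SD, n = 5; -0.20, unadjusted p = 0.0459, adjusted p = 0.626, edgeR). Dlgap1, which joins Dlg to Shank, was at 0.09, and Ppp1r9b (spinophilin, which ties phosphatase to spine actin) also at 0.09.

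Among 20 enzymes and regulators, 16 were fitted higher and 4 lower, with a median of 0.03. Git1, a GTPase-activating protein for Arf that works in spines, was 402 CPM ± 23.3 in sham and 453 CPM ± 32.4 in TBI (SD, n = 5; log2 change 0.17, unadjusted p = 0.0389, adjusted p = 0.620, edgeR). Agap2 (PIKE, which binds Homer) was 1177 CPM ± 103 in sham and 1338 CPM ± 65.8 in TBI (SD, n = 5; log2 change 0.18, unadjusted p = 0.0389, adjusted p = 0.620, edgeR). Camk2a, the kinase subunit most abundant at the density, was at 0.10.

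Of 19 receptors and adhesion partners, 15 were fitted lower and 4 higher, with a median of -0.07, and 0 passed an unadjusted p of 0.05 (edgeR). Gria1, an AMPA receptor subunit, was at -0.07, and Nlgn2, a neuroligin of inhibitory synapses, at 0.04. All 12 activity genes were tested, and 11 were fitted higher, with a median of 0.31. Their mean centred log2 level was 0.45 in TBI replicate 4 and 0.62 in TBI replicate 5, above every sham rat (-0.61 to 0.31), and -0.23 to 0.04 in the other 3 TBI rats, inside the sham range. Ier2 was 4.54 CPM ± 1.39 in sham and 6.68 CPM ± 1.48 in TBI (SD, n = 5; 0.54, unadjusted p = 0.0106, adjusted p = 0.508, edgeR), and Nr4a1, an immediate-early nuclear receptor, was 16.8 CPM ± 3.53 and 23.7 CPM ± 5.82 (SD, n = 5; 0.49, unadjusted p = 0.0169, adjusted p = 0.548, edgeR). Junb was at 0.35 and Egr1 at 0.11, neither past the unadjusted threshold.

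**Figure D5:**
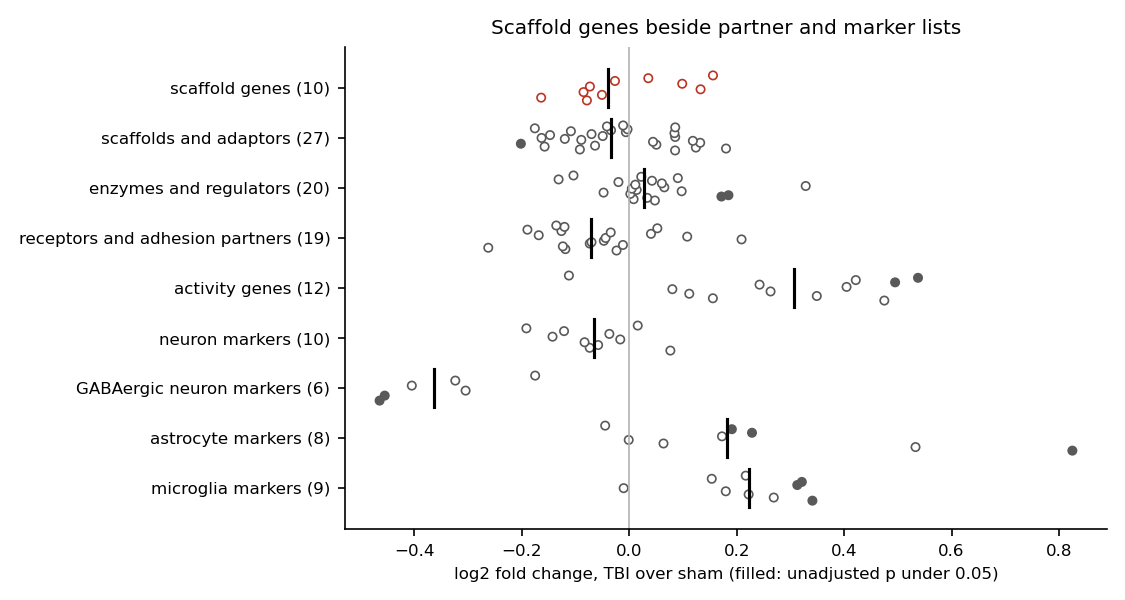
Log2 fold change of TBI over sham for each gene of the scaffold, partner and marker lists, 1 point a gene, filled where the unadjusted p was under 0.05, with the median of each list as a bar and the number tested in parentheses. The scaffold genes lie between -0.16 and 0.16 with no filled point, and the activity genes and astrocyte and microglia markers lie mostly to the right.

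Markers of other cell types were fitted in both directions, and the counts past an unadjusted p of 0.05 stand beside 7.89% of all rows. All 6 GABAergic neuron markers were fitted lower, with a median of -0.36 and 2 past an unadjusted p of 0.05, and the summed level was 172 to 244 CPM in sham and 127 to 202 CPM in TBI rats. Of 8 astrocyte markers 6 were fitted higher (median 0.18, 3 past an unadjusted p of 0.05), with 2999 to 3968 CPM in sham and 3284 to 4838 CPM in TBI rats. Of 9 microglia markers 8 were fitted higher (median 0.22, 3 past an unadjusted p of 0.05), with 191 to 300 CPM and 231 to 319 CPM. Past the same unadjusted threshold were 2 of 8 oligodendrocyte markers (median 0.05), 2 of 3 thalamus markers tested (median 0.36) and 1 of 5 choroid plexus markers, which were all fitted higher (median 0.33). For endothelium (5 tested), CA3 pyramidal cells (5 tested) and excitatory and granule cells (5 tested) the count was 0, with medians of 0.01, 0.06 and -0.25. In edgeR's test 0 of these markers had an adjusted p under 0.05, and their part in the scaffold values was not tested.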

How the data were processed

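The authors deposited whole-number read counts for each RefSeq record, neither normalized nor pooled. Per the labels, reads were aligned with BWA to the rn4 assembly. The methods of the study describe counting over Ensembl transcripts, and how this goes with RefSeq rows was not settled. Read assignment among overlapping records and the use of strand are not given in the sources used here. Acr and Ddx49, which have rows, overlap Shank3 and Homer3 in the annotation used for names, so those counts may share reads.

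Symbols came from a RefSeq table of another assembly (GRCr8), used for names only, and matched 54.2% of records. An empty row and the unmapped reads (12.8% to 26.1% per library) were left out. Rows with a total of at least 44 counts, the 30th percentile, were kept. Groups were compared with edgeR 4.0.16 (TMM, robust quasi-likelihood F test, Benjamini-Hochberg over 22431 rows) in R 4.3.3, after a test on simulated data. Standard errors were derived from the log2 change and the F statistic, and 95% intervals from these with a t quantile. Log2 CPM used a prior count of 2. Shares and ratios were compared by exact permutation over rats (scipy 1.17.1). All p-values compare groups with rats as the unit, and those of edgeR use a dispersion moderated across rows. Alternatives included DESeq2 1.42.0, limma 3.58.1, other scalings and leaving out each rat. No library copied another. Figures used matplotlib 3.10.9.

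Named genes were the 10 scaffold genes, partner genes with an unadjusted p under 0.05 (at most 6 a list), the 2 partner genes of each list with the highest mean CPM and the 5 genes most correlated with the scaffold mean. Prox1, C1ql2, Calb1, Slc17a7, Neurod2 and Grik4 were named after their values were seen. The members and lists were chosen with earlier results of these data known. The Shank2 share and its alternatives were chosen after seeing the data.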

Additional observations from a re-analysis of the deposited data

Results flagged for a closer look

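In 5 of 52 groups of 5 rats, 1 rat lay far from the other 4 by Dixon's criterion, where chance gives about 1 in 20 groups, or 2.6. Dlg1 was 25.9 CPM in TBI replicate 1 and 20.7 to 21.7 CPM in the other TBI rats. The same rat had 8.51% of the Dlg counts on Dlg2, against 5.40% to 6.30% in the others, and 73.0% on Dlg4, against 78.0% to 78.8%. These 3 values come from 1 library and are not independent. Shank2 took 5.65% of the Shank counts in TBI replicate 2 and 6.22% to 6.30% in the other TBI rats, and without that rat the difference in the Shank2 share was -0.68 points. Homer2 took 4.54% of the Homer counts in sham replicate 4 and 3.17% to 3.28% in the other sham rats.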

How the results depend on the processing

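Under all 21 alternatives 0 scaffold genes passed an adjusted p of 0.05, with 0.274 the smallest adjusted p (edgeR, scaling by total counts). At an unadjusted p of 0.05 the count was 0 except in the fits that left out 1 rat, which gave 0 to 2: 2 without sham replicate 1 (Shank1 and Homer3) and 1 without TBI replicate 1 (Dlg2). Scaling by total counts moved the median of all rows from -0.01 to 0.50 and turned Dlg1 to 0.41, Dlg2 to 0.30, Dlg3 to 0.45, Dlg4 to 0.43, Shank2 to 0.40 and Homer1 to 0.46, so directions hold only relative to the median. Homer2 turned to -0.0061 with the ribosomal RNA share as a covariate, -0.03 without sham replicate 2, -0.02 without sham replicate 5 and -0.11 without TBI replicate 2. Homer1 turned to 0.03 without sham replicate 1 and 0.01 without TBI replicate 3. Leaving out 1 rat gave -0.11 to 0.15 for Homer2 and -0.082 to 0.031 for Homer1. The other 198 of 210 gene values kept direction and side of the adjusted threshold.

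Partner genes past an unadjusted p of 0.05 numbered 5, against 15 with scaling by total counts, 0 with the ribosomal covariate, 2 by the exact test of edgeR, 2 without the 2 rich sham libraries and 3 to 10 without 1 rat (10 without sham replicate 1, 3 without TBI replicate 2 or TBI replicate 3). Partner genes past an adjusted p numbered 0, except 1 (Ier2, log2 change 0.84, adjusted p = 0.0092, edgeR) without replicate 3 of both groups. Those 2 libraries were picked with the data seen, as standing nearer the other group. The 319 rows called without them are therefore no evidence of a difference. Mean centred log2 levels in sham and TBI replicate 3 were 0.08 and -0.13 for astrocyte markers, and 0.24 and -0.15 for microglia markers. They were -0.09 and 0.13 for GABAergic neuron markers. Group means ran the other way in these lists, but choroid plexus and oligodendrocyte markers did not cross. By chi-square over all counts, TBI replicate 3 was nearest TBI replicate 4 (13.8 per degree of freedom). Sham replicate 3 was nearest TBI replicate 4 too (9.02, the lowest of the 45 pairs), and its nearest sham rat was replicate 1 (16.6). Sham replicates 1 and 2 were also nearest TBI replicate 4 (16.2 and 15.6), so these distances did not follow the groups. The Shank2 share fell short of the threshold with 1 record (-0.16 points, exact permutation p = 0.127), and was -0.68 to -0.90 points without 1 rat. The causes were not tested.

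Homer2 rests on 49 to 195 reads a rat, the fewest of the 10 genes, and has the largest standard error. The 2 sham libraries richest in ribosomal RNA had 12686398 and 12987310 counts outside it, the fewest of the 10. Because replicate numbers follow sample order, no paired fit was made.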
